A study of Mus musculus with 6 samples.

Results

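Netrins are secreted proteins related to laminins that attract or repel growing axons and migrating cells. Deleted in colorectal cancer (*Dcc*) and its relative neogenin (*Neo1*) are their attractive receptors, and the Unc5 receptors turn the response to netrin-1 into repulsion. Neogenin also binds repulsive guidance molecules, Unc5 receptors also bind the FLRT proteins, and netrin-4 binds laminin networks in basement membranes. In injured nerve, netrin-1 and its receptors are among the cues linked to the migration of Schwann cells (SCs), the glia that ensheath peripheral axons.

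The 8 genes described here are the ligands *Ntn1* and *Ntn4* and the receptors *Dcc*, *Neo1*, *Unc5a*, *Unc5b*, *Unc5c*, and *Unc5d*, chosen by name among 55401 genes of the count table. They were measured by bulk RNA-seq of poly(A)-selected RNA in primary SCs cultured from the dorsal root ganglia of adults, with 3 cultures labelled WT and 3 labelled PB1 -/-, here called Plxnb1-/-. The Plxnb1-/- mice lack the guidance receptor Plexin-B1 in all their cells through a gene trap cassette with a lacZ reporter, which leaves the exons before it able to be transcribed. The study used WT and heterozygous littermates as controls, and the labels of these 3 cultures give WT. All 6 cultures were kept in forskolin, neuregulin, and serum, and fibroblasts had been removed with an antibody against Thy1. The labels do not say whether the cultures of a genotype came from separate animals, so p-values measure the spread between these cultures, which may be technical.

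Total counts ran from 59252048 to 77280964 per library. A floor of 3 counts equalled between 0.0383 and 0.0513 CPM, the count divided by the library total and scaled by the TMM method so that a deeper library does not read higher, and it covers counting error only. *Plxnb1* measured 61.8, 45.4, and 96.4 CPM in WT and 13.1, 16.6, and 18.6 CPM in Plxnb1-/- cultures 1, 2, and 3, so each library matched its label. All 7 SC markers were detected in every culture, and their summed level was 2184 to 2599 CPM in WT and 2645 to 2989 CPM in Plxnb1-/- cultures. The 5 fibroblast markers summed to between 1329 and 1834 CPM in WT and between 1357 and 1392 CPM in Plxnb1-/- cultures, and WT replicate 2 had the highest fibroblast and the lowest SC sum. *Thy1*, the antigen used to remove fibroblasts, was still detected. It measured 429, 652, and 490 CPM in WT and 410, 409, and 384 CPM in Plxnb1-/- cultures. Of the 5 fibroblast markers, 2, *Thy1* included, were lower in every Plxnb1-/- culture, against 10.4% of all tested genes. The rest overlapped between the genotypes. Among the other marker lists, satellite glia summed to between 696 and 815 CPM in WT and between 840 and 864 CPM in Plxnb1-/- cultures. This sum was mostly *Kcnj10*, with means of 704 CPM in WT and 787 CPM in Plxnb1-/- cultures. The other marker, *Fabp7*, averaged 63.9 and 66.4 CPM, with overlap. Macrophage and leukocyte markers summed to between 23.0 and 25.3 CPM in WT and between 26.6 and 29.3 CPM in Plxnb1-/- cultures. *Csf1r* alone averaged 14.0 CPM in WT and 16.5 CPM in Plxnb1-/- cultures. Its exons share 873 bases with those of *Hmgxb3* on the opposite strand. The satellite glia sum and the macrophage and leukocyte sum, like that of the SC markers, were thus higher in every Plxnb1-/- culture. Singly, 3 of 7 SC, 1 of 2 satellite glia, and 2 of 5 macrophage and leukocyte markers were higher in every Plxnb1-/- culture. The share over all tested genes was 9.3%, and the remaining markers of these lists overlapped. The part of these cell types in the values of the members was not tested. In bulk RNA, fewer cells of a type and less RNA per cell cannot be told apart.

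Ligands and receptors stood at very different levels. Per kilobase of exon, which allows different genes to be compared, *Unc5b* was the most abundant member in WT SCs, at 18.7 ± 3.08 CPM per kb (SD, n = 3). *Neo1* followed at 14.5 ± 1.17 CPM per kb and *Ntn1* at 10.8 ± 0.432 CPM per kb. *Ntn4* lay beside *Ntn1*, at 10.8 ± 0.860 CPM per kb. *Unc5c* measured 2.74 ± 0.480 CPM per kb and *Unc5a* 2.00 ± 0.554 CPM per kb in WT. The remaining receptors were near the floor of the depth, *Unc5d* at 0.0180 ± 0.0103 CPM per kb and *Dcc* at 0.00357 ± 0.00619 CPM per kb. The cultures therefore held transcripts of both ligands, of neogenin, and of 3 Unc5 receptors well above the floor.

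Neighbours in this order did not always differ beyond the spread of the cultures. In WT, the ranges of *Unc5b* and *Neo1* overlapped, as did those of *Ntn1* and *Ntn4*, of *Unc5c* and *Unc5a*, and of *Unc5d* and *Dcc*. In Plxnb1-/- SCs, *Neo1* and *Ntn1* overlapped, at 12.8 ± 0.685 and 12.0 ± 0.826 CPM per kb (SD, n = 3), whereas *Ntn1* and *Ntn4* did not. There *Ntn4* measured 9.51 ± 1.42 CPM per kb and *Unc5b* 15.8 ± 1.00 CPM per kb. The step from *Ntn4* down to *Unc5c*, 3.95-fold between the WT means, and that from *Unc5a* to *Unc5d*, 111-fold, had no overlap in either genotype. When the longest coding transcript was taken as the length of each gene, the order of the 8 genes was the same, and *Unc5c* moved most, to 5.43 CPM per kb in WT. Some overlaps were lost with that length. In WT, *Unc5c* ran from 4.62 to 6.48 and *Unc5a* from 1.45 to 2.58 CPM per kb. In Plxnb1-/- SCs, *Neo1* ran from 14.1 to 15.6 and *Ntn1* from 12.0 to 13.7 CPM per kb.

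**Figure D1:**
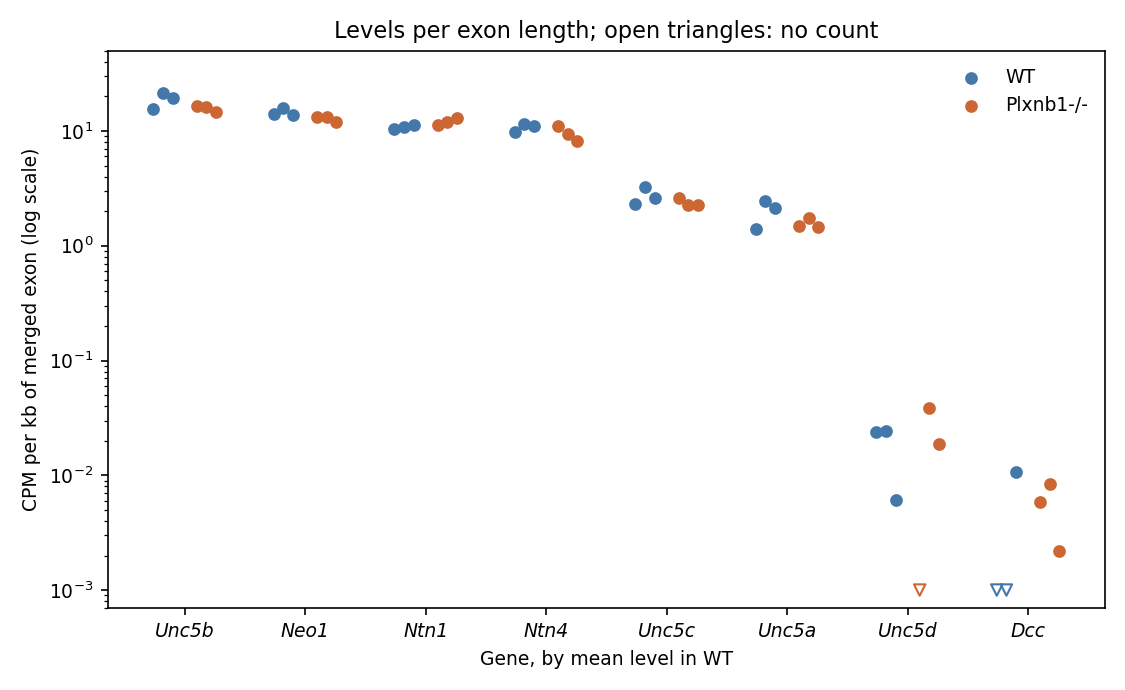
Level of each of the 8 genes per kilobase of merged exon (CPM per kb, log axis), with 1 point for each of the 3 WT and 3 Plxnb1-/- cultures. Open triangles at the lower edge stand for cultures with no count, 2 WT cultures for *Dcc* and 1 Plxnb1-/- culture for *Unc5d*, and the 6 genes to the left lie above 1 CPM per kb in all cultures.

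No member was called differentially expressed. A call needed a Benjamini-Hochberg adjusted p under 0.05 in edgeR's quasi-likelihood test and a log2 fold change beyond 0.25 in either direction. Of 22318 genes tested, 8 met both (0.0358%). In 7 the Plxnb1-/- level was below that of WT (0.0314%), and in 1 it was above (0.00448%). Of the 8 members, 7 had enough counts to be tested and *Dcc* had not. DESeq2 called 0 of the 6 it gave an adjusted p, all but *Unc5d*, against 1.5% of all tested genes. At an unadjusted p below 0.05, edgeR had 2 of the 7, *Ntn1* (higher) and *Neo1* (lower), where 13.7% of all tested genes reached it, 6.78% lower and 6.95% higher. DESeq2's unadjusted p was below 0.05 for these and also for *Unc5a* (0.0474) and *Unc5b* (0.0265), and for 11.9% of the 22316 genes to which it gave a p. Among the tested members, 5 had a negative and 2 a positive log2 fold change (Plxnb1-/- minus WT), with a median of −0.19, and 48.5% of all tested genes were negative, with a median of 0.00496.

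*Ntn1* (ENSMUSG00000020902.12) encodes netrin-1, the founding guidance ligand of the family, and is located on chromosome 11 (GRCm38, 68209364 to 68400823, minus strand). Its levels were 65.5, 67.5, and 70.9 CPM in WT and 70.3, 75.5, and 80.6 CPM in Plxnb1-/- cultures 1, 2, and 3. The genotypes overlapped by 1 culture on each side, WT replicate 3 and Plxnb1-/- replicate 1. The means were 68.0 ± 2.71 and 75.5 ± 5.18 CPM (SD, n = 3), a log2 fold change of 0.15 with a 95% interval from 0.02 to 0.28 and an adjusted p of 0.323 from edgeR. As a ratio, the interval ran from 1.01 to 1.22. *Ntn1* was the only well-expressed member with a higher mean in Plxnb1-/- SCs.

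*Ntn4* (ENSMUSG00000020019.4), on the plus strand of chromosome 10 from 93640681 to 93747207, encodes netrin-4, a basement membrane netrin. Its levels were 36.8, 43.0, and 41.5 CPM in WT cultures and 41.1, 35.1, and 30.5 CPM in Plxnb1-/- cultures. Only 2 of the 3 Plxnb1-/- cultures lay below every WT culture. The log2 fold change was −0.19 with a 95% interval from −0.42 to 0.05 (adjusted p = 0.459, edgeR). Set against each other within a culture, *Ntn1* and *Ntn4* per kb stood at a ratio of 1.06, 0.936, and 1.02 in WT and of 1.02, 1.28, and 1.58 in Plxnb1-/- cultures, with overlapping ranges. Both ligands together came to 21.6 ± 1.18 CPM per kb in WT cultures and 21.5 ± 0.601 CPM per kb in Plxnb1-/- cultures (SD, n = 3), with overlapping ranges.

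**Figure D2:**
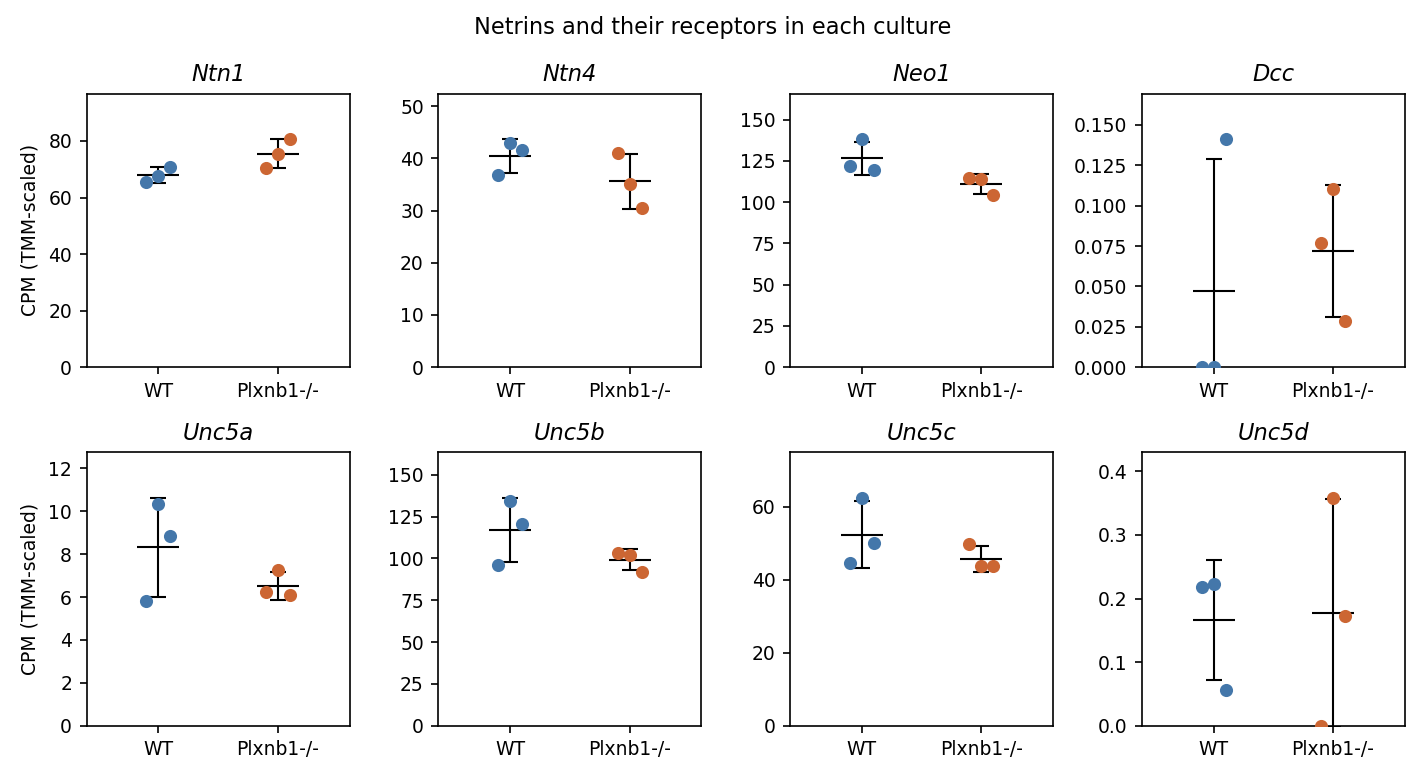
CPM of each member in the 3 WT and 3 Plxnb1-/- cultures, each panel with its own linear axis from 0. Points are cultures, horizontal bars are means, and vertical bars are ± 1 SD. *Neo1* is the member whose genotypes do not overlap, and *Dcc* and *Unc5d* lie below 0.4 CPM.

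*Neo1* (ENSMUSG00000032340.8) encodes neogenin, a receptor for netrins and for repulsive guidance molecules, and lies on the minus strand of chromosome 9 from 58874687 to 59036441. Its levels were 122, 138, and 119 CPM in WT and 115, 114, and 104 CPM in Plxnb1-/- cultures. Every Plxnb1-/- culture was below every WT culture, which made *Neo1* 1 of 7 tested members with this separation, against 10.4% of all tested genes in the same direction and 19.7% in either. The means of 127 ± 10.2 and 111 ± 5.97 CPM (SD, n = 3) gave a log2 fold change of −0.19 with a 95% interval from −0.33 to −0.04 (unadjusted p = 0.0185, adjusted p = 0.296, edgeR). Without WT replicate 2, the highest culture, the log2 fold change was −0.11 (adjusted p = 0.561, edgeR). *Neo1* shares chromosome 9 with *Plxnb1* and lies 50.1 Mb from it.

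*Dcc* (ENSMUSG00000060534.16), the classical attractive netrin-1 receptor, had 0, 0, and 10 counts in WT and 6, 8, and 2 counts in Plxnb1-/- cultures. It was under 3 counts in 3 of the 6 cultures, and its highest level was 0.141 CPM, in WT replicate 3. No difference between genotypes was detectable at this depth. Markers of neurons, the other main cells of the ganglion, were detected. Of the 6, *Rbfox3* was the lowest, between 0.308 and 0.736 CPM, and *Syn1* the highest, at a mean of 19.2 CPM. Among them, 1 was higher in every Plxnb1-/- culture, against 9.3% of all tested genes, and the rest overlapped. All 6 markers summed to between 29.0 and 42.3 CPM. Their part in the *Dcc* counts was not tested. *Dscam* and *Dscaml1*, adhesion molecules also described as netrin receptors, were too low to be tested, with at most 8 counts and 2 counts in a culture.

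*Unc5b* (ENSMUSG00000020099.8), on the minus strand of chromosome 10 from 60762593 to 60831581, encodes the repulsive receptor Unc5H2. Per culture it reached 96.3, 134, and 121 CPM in WT and 103, 102, and 91.9 CPM in Plxnb1-/- cultures. The Plxnb1-/- cultures fell between and below the WT cultures, and WT replicate 1 was the second lowest of the 6. The means were 117 ± 19.3 and 99.1 ± 6.28 CPM (SD, n = 3), a log2 fold change of −0.24 with a 95% interval from −0.48 to 0.00 (adjusted p = 0.365, edgeR).

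*Unc5c* (ENSMUSG00000059921.15), on the plus strand of chromosome 3 from 141465216 to 141834924, measured 44.6, 62.5, and 50.1 CPM in WT and 49.9, 43.6, and 43.7 CPM in Plxnb1-/- cultures. WT replicate 1 sat within the Plxnb1-/- range, and the log2 fold change was −0.19 with a 95% interval from −0.45 to 0.06 (adjusted p = 0.476, edgeR). *Unc5a* (ENSMUSG00000025876.15), on the plus strand of chromosome 13 from 54949411 to 55006018, measured 5.80, 10.3, and 8.87 CPM in WT and 6.22, 7.24, and 6.07 CPM in Plxnb1-/- cultures. Its log2 fold change was the largest in size of the members above 1 CPM, while WT replicate 1 was the lowest of all 6 cultures. The value was −0.35 with a 95% interval from −0.77 to 0.06 (adjusted p = 0.430, edgeR). Exons of *Unc5a* overlap *Hk3* by 34 bases and those of *Unc5c* overlap Gm15688 by 118 bases, both on the opposite strand, and the strand setting of the counting is not given in the sources used here.

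*Unc5d* (ENSMUSG00000063626.6), on the minus strand of chromosome 8 from 28646717 to 29219636, had 14, 13, and 4 counts in WT and 0, 26, and 12 counts in Plxnb1-/- cultures. Both the highest and the lowest culture were Plxnb1-/-, and the 95% interval of the log2 fold change ran from −1.95 to 2.16 (adjusted p = 0.972, edgeR). Its level of at most 0.359 CPM did not allow a difference to be judged.

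Shares within the Unc5 family overlapped between the genotypes. *Unc5b* took 79.8 ± 0.865% of the summed level per kb in WT and 79.9 ± 0.281% in Plxnb1-/- SCs (SD, n = 3). *Unc5c* took 10.9% to 12.6% and *Unc5a* 7.24% to 9.09% over the 6 cultures, with overlapping genotypes. These shares depend on the length taken for each gene. With the longest coding transcript, *Unc5b* took 71.6% to 73.5%, *Unc5c* 18.6% to 21.2%, and *Unc5a* 6.40% to 8.07%, again with overlap. The ratio of *Unc5b* to *Neo1* per kb was 1.29 ± 0.163 in WT and 1.24 ± 0.0129 in Plxnb1-/- SCs, again with overlap. Of 3 ratios of ligand to receptor, 2 did not overlap between the genotypes. Both of these include *Neo1*, which did not overlap by itself, and 19.7% of all tested genes did not overlap in either direction. The 2 netrins summed to 0.612, 0.516, and 0.594 of the 6 receptors per kb in WT and to 0.656, 0.639, and 0.690 of them in Plxnb1-/- cultures, so every Plxnb1-/- culture was above every WT culture. The ratio of *Ntn1* to *Neo1* did likewise, with 0.746, 0.678, and 0.824 in WT and 0.849, 0.917, and 1.07 in Plxnb1-/- cultures. The ratio of *Ntn1* to *Unc5b* overlapped, with 0.678, 0.501, and 0.586 in WT and 0.678, 0.737, and 0.874 in Plxnb1-/- cultures. The receptor sum also overlapped, from 33.1 to 43.1 CPM per kb in WT and from 30.4 to 33.8 CPM per kb in Plxnb1-/- cultures. These ratios share genes with each other, were formed after the values of the single genes had been seen, and were not tested.

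Some cultures stood apart from others of their genotype. WT replicate 2 was the highest of the 6 cultures for *Ntn4*, *Neo1*, *Unc5a*, *Unc5b*, and *Unc5c*, by 0.18, 0.22, 0.48, 0.31, and 0.35 on the log2 scale over the mean of all cultures. The summed fibroblast markers stood 0.32 above and the summed SC markers 0.28 below their means in the same culture (log2 values of 0.32 and −0.28). Plxnb1-/- replicate 3 was the lowest for *Ntn4*, *Neo1*, and *Unc5b* and the highest for *Ntn1* and for the summed SC markers. The part of the cell types in these values was not tested. Without WT replicate 2, the log2 fold changes were −0.13 for *Unc5b*, −0.05 for *Unc5c*, −0.17 for *Unc5a*, and −0.14 for *Ntn4*, closer to 0 than with it in each case (adjusted p between 0.733 and 0.901, edgeR). Without WT replicate 1, they were −0.36, −0.30, −0.56, and −0.25 in the same order, with adjusted p-values from edgeR of 0.121, 0.197, 0.121, and 0.313. The size of the *Unc5a*, *Unc5b*, and *Unc5c* differences therefore depended on which WT culture was included. That of *Ntn4* moved more with the Plxnb1-/- cultures, to −0.31 without replicate 1 and −0.09 without replicate 3 (adjusted p = 0.329 and 0.820, edgeR).

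**Figure D3:**
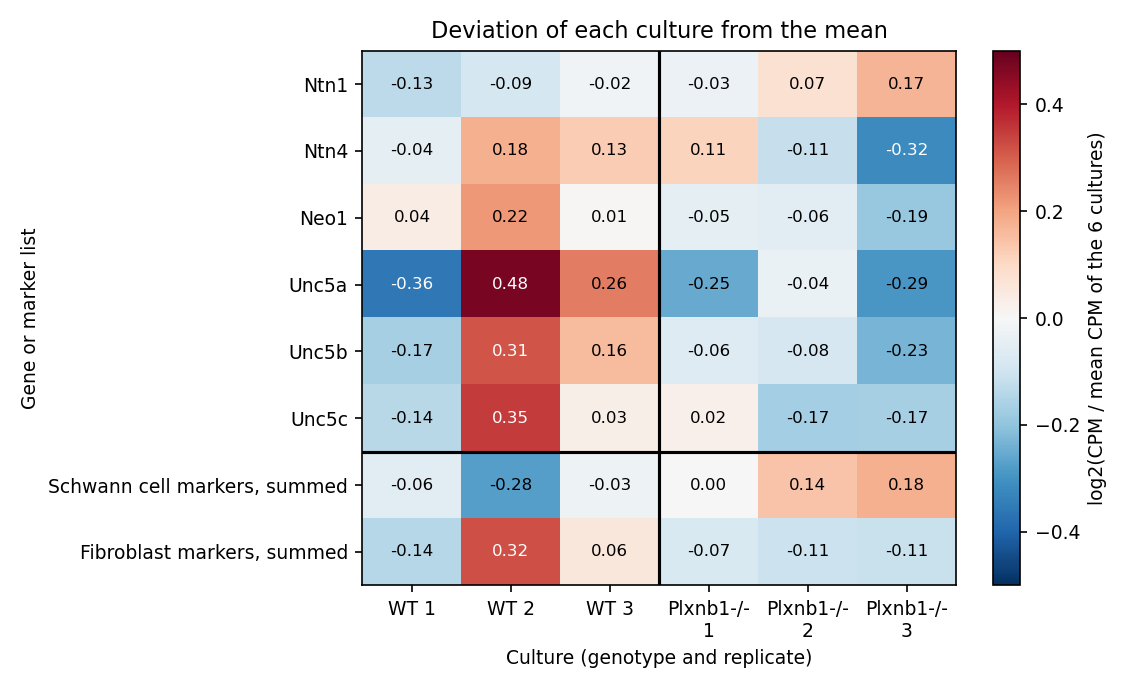
Deviation of each of the 6 cultures from the mean of all, as log2(CPM / mean CPM), for the 6 members with a mean of at least 1 CPM and for the summed SC and fibroblast markers. The column of WT replicate 2 is highest for all members but *Ntn1*, with 0.48 for *Unc5a*, together with fibroblast markers at 0.32 and SC markers at −0.28.

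The 3 genes whose pattern over the 6 cultures was most like that of a member were found by Pearson's r of log2 CPM, as a description over 6 libraries that share these genotypes and cell makeups. For *Neo1* they were *Eml4*, *Glrx3*, and *Fam162a*, with r from 0.997 to 0.999. *Unc5b* was most like *Dcakd*, *Vtn*, and *Golm1* (0.995 to 0.997), *Unc5a* like *Ttc28*, *Add2*, and *C1qtnf6* (0.994 to 0.997), and *Unc5c* like *Kazn*, *Coq8a*, and *Ly6d* (0.995 to 0.996). For *Ntn1*, the genes were *Iglon5*, *Ccdc167*, and the pseudogene AC116841.1, each at 0.987. The last of these averaged 0.619 CPM, and *Ly6d* 0.0496 CPM, so these matches rest on few counts. The nearest to *Ntn4* were *Slc52a3*, *Bdh2*, and *Zdhhc16* (0.989 to 0.995). No member was among the 3 nearest genes of another, which were picked from 22318 tested genes. Between members, r ran from 0.633 (*Ntn4* and *Unc5a*) to 0.958 (*Unc5a* and *Unc5b*) among *Ntn4*, *Neo1*, *Unc5a*, *Unc5b*, and *Unc5c*. *Ntn1* had a negative r with each of these, from −0.799 (*Neo1*) to −0.239 (*Unc5a*). WT replicate 2 was the highest culture for all of these members but *Ntn1*. The share of all gene pairs with such r was not computed.

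None of the 4 other netrins was called by edgeR or DESeq2, and 1 of them, *Ntn5*, had an unadjusted edgeR p below 0.05 (0.0170). *Ntn5* measured 18.4, 17.5, and 17.9 CPM in WT and 18.5, 22.0, and 22.8 CPM in Plxnb1-/- cultures, with no overlap (9.3% of all tested genes were separated this way) although the nearest cultures of the genotypes almost met. Its log2 fold change was 0.24 with a 95% interval from 0.05 to 0.42 (adjusted p = 0.295, edgeR), and its exons overlap those of *Sec1* on the opposite strand by 519 bases. *Ntn3* had a log2 fold change of −0.08 and shares 89 exonic bases with *Tbc1d24* on the same strand (adjusted p = 0.751, edgeR). The netrin-G genes *Ntng1* and *Ntng2*, membrane-anchored netrins that bind other receptors, had log2 fold changes of 0.13 and 0.02. Their adjusted p-values from edgeR were 0.634 and 0.937, and *Ntng2* shares 558 exonic bases with 6530402F18Rik on the same strand.

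Of 27 further ligands and partners of these receptors at the cell surface, 23 were tested, and edgeR called 0. Among them 14 had a positive and 9 a negative log2 fold change, and their median of 0.13 compares with 0.00496 over all tested genes. At an unadjusted p below 0.05, 6 were higher and 0 lower, where 6.95% of all tested genes were higher at that p. The largest log2 fold change was that of *Itgb4*, the integrin β4 chain, which pairs with the α6 chain to bind laminins and is also described as a netrin partner. It measured 108, 88.5, and 104 CPM in WT and 118, 130, and 153 CPM in Plxnb1-/- cultures, with no overlap. Of all tested genes, 9.3% were separated in this direction. Exons of *Itgb4* share 537 bases with B230344G16Rik on the opposite strand. The log2 fold change of 0.42 (95% interval 0.19 to 0.64) had an adjusted p of 0.266 from edgeR and of 0.00706 from DESeq2, which called it. Its partner *Itga6* was next among the genes of this list with a mean of at least 1 CPM, with 0.32 (95% interval 0.08 to 0.56, adjusted p = 0.293, edgeR), also without overlap. These integrins are SC laminin receptors as well, and the summed SC markers were higher in every Plxnb1-/- than in every WT culture, whose part in this was not tested. At the other end, with the same minimum, were *Adora2b*, an adenosine receptor, at −0.41 (95% interval −0.82 to 0.01) and *Flrt1*, an Unc5 ligand, at −0.18 (95% interval −0.61 to 0.26), both with overlapping cultures.

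Cytoplasmic signalling genes downstream of netrin receptors were all tested, and edgeR called 0 of 29. Of these, 18 had a positive and 11 a negative log2 fold change, with a median log2 fold change of 0.03. At an unadjusted edgeR p below 0.05, 4 were higher and 3 lower. Over all tested genes the median was 0.00496, and 6.95% were higher and 6.78% lower at that p. *Enah*, an Ena/VASP protein that drives actin filament growth at the leading edge, measured 89.7, 124, and 92.1 CPM in WT and 79.9, 72.0, and 62.7 CPM in Plxnb1-/- cultures. Every Plxnb1-/- culture was lower, and the log2 fold change of −0.51 (95% interval −0.80 to −0.22) had an adjusted p of 0.273 from edgeR and of 0.00607 from DESeq2, which called it. Its relative *Vasp* had −0.21 (95% interval −0.31 to −0.10, adjusted p = 0.266, edgeR), also without overlap. The 2 highest values at a mean of at least 1 CPM were those of *Ablim1*, an actin-binding LIM protein, with 0.41 (95% interval 0.15 to 0.67, adjusted p = 0.273, edgeR) and *Trim9*, a ubiquitin ligase that acts with *Dcc* in neurons, with 0.33 (95% interval −0.16 to 0.83). *Trim9* stood at a mean of 1.43 CPM. Of the 60 genes in these 3 lists, 56 were tested. EdgeR called 0 of them, against 0.0358% of all tested genes, and DESeq2 called 2, *Itgb4* and *Enah*, against 1.5%.

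**Figure D4:**
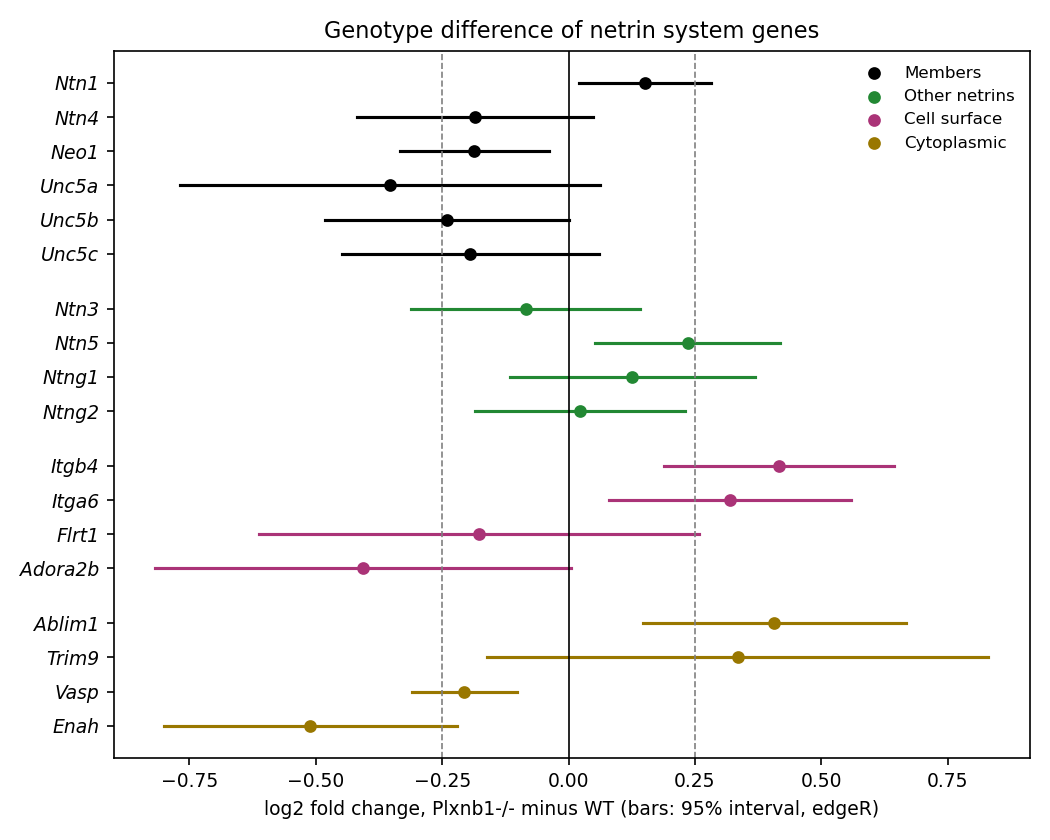
Log2 fold change (Plxnb1-/- minus WT) of 6 members and of the named genes of the 3 netrin system lists, with 95% intervals from edgeR, and dashed lines at −0.25 and 0.25. *Unc5d*, whose interval runs from −1.95 to 2.16, is left out for scale, and *Ntn1* and *Neo1* are the members whose intervals do not reach 0.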

How the data were processed

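According to the methods and the labels, the authors trimmed reads with Trim Galore 0.6.5, aligned them to mm10 with Bowtie2 2.4.1, removed duplicates with SAMtools 1.10, and deposited raw counts per gene from FeatureCounts, beside FPKM values. The length that fits the deposited FPKM values was the span of the gene, introns included, in 99.5% of 14948 genes, so levels of different genes were compared in CPM per kb. The closing section gives the order by FPKM beside it. Of 55401 genes, 55141 matched GENCODE vM21 of GRCm38 by identifier without version. Merged exons of that annotation gave the lengths for CPM per kb.

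Testing was limited to genes that reached 2 counts in 5 or more of the 6 libraries, and used edgeR 4.0.16 (TMM, quasi-likelihood, genotype as only term, Benjamini-Hochberg over all tested genes). Standard errors came from the fold change and the square root of F, and 95% intervals from the t distribution with edgeR's degrees of freedom. DESeq2 1.42.0, limma 3.58.1 on log2(FPKM + 0.01) and log2(FPKM + 0.1), other filters and size factors, a replicate term, and leaving out each library were alternatives. The scripts were tested on simulated data. R 4.3.3, Python 3.11.15, and pandas 2.3.3 were used.

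All members are named. Of the other lists, the genes called by edgeR or DESeq2 and the 2 highest and 2 lowest log2 fold changes per list at a mean of at least 1 CPM are named. *Vasp* is among these. *Dscam*, *Dscaml1*, *Rbfox3*, *Syn1*, *Thy1*, *Csf1r*, *Kcnj10*, and *Fabp7* were added after their values were seen. The members and lists were chosen with earlier results of these data known. The marker lists are given as summed CPM. No marker was called by edgeR. The sums of 5 endothelial, 5 pericyte and smooth muscle, 3 perineurial, and 6 neuron markers overlapped between the genotypes and ran from 57.8 to 77.4, from 117 to 155, from 105 to 125, and from 29.0 to 42.3 CPM. Those of 2 satellite glia and 5 macrophage and leukocyte markers did not overlap.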

Additional observations from a re-analysis of the deposited data

How the results depend on the processing

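Across the alternatives, 0 members were called in each setting, and *Ntn1*, *Ntn4*, *Neo1*, *Unc5a*, *Unc5b*, and *Unc5c* had the same direction in all 14 alternatives run for each. The lowest adjusted p was 0.121, for *Unc5a* and *Unc5b* without WT replicate 1. *Unc5d*, with at most 26 counts, turned to −0.11 with the replicate block and lay between −0.96 and 0.70 with 1 library left out. Over all genes, 8 calls became 335 with DESeq2, 296 without a filter on low counts, 3 with limma on FPKM at either pseudocount, 5 with the replicate block, and 4 to 25 with 1 library left out, 25 of them without WT replicate 2. Among the 60 list genes, 0 calls became 2 with DESeq2 and 2 without a filter, *Itgb4* and *Enah* in both.

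*Plxnb1* kept its direction but was no longer called at −1.99 and −1.86 with limma on FPKM at pseudocounts of 0.01 and 0.1, −2.08 with filterByExpr, and lay between −2.30 and −1.74 with 1 library left out, where the call was lost without WT replicate 1 or without any 1 of the 3 Plxnb1-/- cultures (adjusted p between 0.0886 and 0.268, edgeR). With the longest coding transcript as length, an alternative chosen after seeing the data, *Ntn1*, *Neo1*, and *Unc5c* moved to 11.6, 17.2, and 5.43 CPM per kb in WT, and the *Unc5c* share of the Unc5 sum to between 18.6% and 21.2%.

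Deviations of same-numbered cultures correlated at −0.02, 0.01, and 0.07, and those of differently numbered cultures at between −0.05 and 0.05. The labels do not say whether same-numbered cultures were prepared together. With deviations from the mean of 3 libraries, these values cannot decide whether the replicate numbers pair the genotypes. With 3 cultures a genotype, the 95% intervals of the expressed members reach down to −0.77 on the log2 scale (*Unc5a*), and *Dcc* and *Unc5d* are limited by depth.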

Other observations

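The deposited FPKM values, which rest on the span of each gene, order the members differently from the exon lengths. By FPKM, *Ntn4* came before *Ntn1* (0.378 and 0.354 FPKM in WT), and *Unc5a* came before *Unc5c* (0.146 and 0.141 FPKM). Their spans are 107 kb for *Ntn4*, 191 kb for *Ntn1*, 56.6 kb for *Unc5a*, and 370 kb for *Unc5c*, while their merged exons measure 3.74, 6.28, 4.17, and 19.1 kb. In CPM, which takes no account of gene length, the level of *Ntn1* was above that of 84.4% of the tested genes. The share was 91.2% for *Neo1*, 90.1% for *Unc5b*, 78.3% for *Unc5c*, 73.7% for *Ntn4*, 51.4% for *Unc5a*, and 15.7% for *Unc5d*. Long genes rank higher in CPM than they would per kb.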
